A study of Saccharomyces cerevisiae with 61 samples.

Results

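The change in gene expression between 40 and 100 min after release from mating pheromone was followed in the galsicΔP parent strain of budding yeast, which keeps its NRM1 gene. Extracts were taken by label: the galsicΔP extracts without nrm1 deletion, 2 at 100 min and 2 at 40 min, which are 4 of the 56 RNA extracts in the study. The study, whose title concerns replication stress and G1/S genes, compared total RNA of BY4741 yeast on 61 two-colour arrays, and 10 of these carry galsicΔP RNA. As comparison served galsicΔP nrm1Δ at 100 min, galsicΔP nrm1Δ at 40 min and the galsicΔP parent at 0 min, again 2 extracts each. No extract of this set received a DNA-damaging agent, and all come from cells arrested with mating pheromone, with times counted from the release. The labels do not expand the name galsicΔP, do not say whether extracts of a group came from separate cultures, and do not name a clone. The p-values therefore measure only a spread between extracts, which may be technical and comes mostly from other strains, as 4 of the fit's 20 residual degrees of freedom lie in the galsicΔP set.

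In work on the yeast cell cycle, names of this kind commonly stand for a Sic1 protein that is made from a galactose promoter and lacks the phosphorylation sites through which it is normally destroyed. Sic1 inhibits the S-phase and mitotic cyclin kinases, so cells that keep it stay before DNA replication. Late in G1 the factors SBF and MBF switch on genes for budding and DNA synthesis, and the corepressor Nrm1, itself an MBF product, binds MBF and shuts its targets again. Budding yeast then transcribes histone genes in S phase, the CLB2 cluster from G2 to mitosis, and genes of cell separation and of the MCM helicase from the end of mitosis into early G1.

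The 10 arrays form a closed loop of 6, which holds 1 parent extract of 100 min, 1 of 40 min and both of 0 min beside nrm1Δ extracts, and a closed loop of 4, which holds the other parent extracts of 100 and 40 min beside nrm1Δ extracts. In the first loop 1 array compared the parent extracts of 100 and 40 min directly. In the second loop they met only through the nrm1Δ extracts, along 2 paths of 2 arrays. A dye bias enters these paths with opposite signs and cancels in the loop's difference, which is their mean. A gap between the paths therefore holds dye bias and noise together. A value is a log2 ratio, 100 min minus 40 min, so a positive one is higher at 100 min, and means over both loops are given ± SE (n = 2 extracts at each time). The SE rests on a spread that limma shared over the extracts of all strains. Extracts of different loops have no common scale, so each loop's difference is given in place of single levels. Array medians lay between -0.0124 and 0.0249. Signal over background is not given in the sources used here, and what limits the precision was not tested.

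NRM1 was used to check the strain labels. In nrm1Δ minus the parent it read -4.58 in the first loop and -5.04 in the second at 100 min, and -3.77 and -3.28 at 40 min. On the 4 arrays of the second loop the nrm1Δ channel was the lower one every time, as titles and source names have it, although the genotype entries of several arrays name 1 strain for both channels. SIC1 in the parent stood above the mean of the 0 min extracts by 3.42 at 100 min and 2.74 at 40 min in the first loop, and GAL1, the galactokinase gene, by 8.39 at 100 min and 8.28 at 40 min. Both were thus far above 0 min at either time. BY4741 is commonly described as lacking MET17, HIS3, LEU2 and URA3, yet the MET17 feature rose by 2.54 ± 0.23 between 40 and 100 min, and above 0 min it stood at 3.89 at 100 min and 1.15 at 40 min. LEU2 stood at 3.04 at 100 min and 2.57 at 40 min on that scale, and HIS3 at 0.90 at 100 min and 1.49 at 40 min. Between the times HIS3 changed by -0.51 ± 0.09 (limma adjusted p = 1.8e-04). URA3 read 0.01 ± 0.32 between the times and stood above 0 min by 0.45 at 100 min and 0.35 at 40 min. The readings of MET17 and LEU2 go against the strain name in the labels, and that of URA3 does not. HIS3 also changed, and the cause of these readings was not tested. DNA content and budding are not among the data, so whether the cells stayed arrested up to 100 min was not measured here.

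Between 40 and 100 min 1745 of 6249 features passed limma's test at an adjusted p under 0.05, which is 27.9% of those tested. At 100 min 845 were higher (13.5%) and 900 lower (14.4%), and an unadjusted p under 0.05 was reached by 2371. Of the 1745, 438 changed by more than 2-fold, 169 upwards and 269 downwards. The loops gave the same sign for 1744 of the 1745 and for 82.6% of all features. The call rests on the mean of both loops, so the agreement among called features was largely set by it. Across all features, which are not independent replicates, the loops correlated at r = 0.9, with an SD of 0.528 for the first loop's differences, 0.641 for the second's and 0.287 for the gap between them. The direct array correlated with the second loop at r = 0.86. Within the second loop its 2 paths correlated at r = 0.74, with an SD of 0.497 for the gap between them. On the first loop alone 566 features passed and on the second alone 1154, so the size of the count rests on having both. A gene is called lost under a setting where it missed the threshold there. With the arrays scaled to equal spread 930 passed. The RNA is from whole cultures, so fewer cells in a phase and less RNA per cell cannot be told apart.

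**Figure D1:**
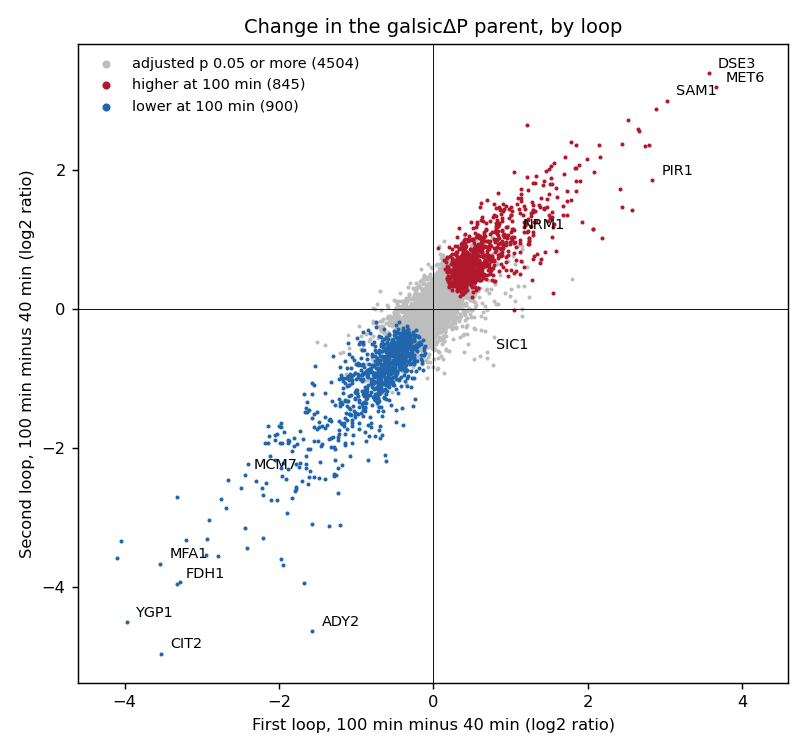
Each point is a feature, with its 100 min minus 40 min difference in the first loop on the horizontal axis and in the second loop on the vertical axis (log2 ratios), coloured by limma's call over both loops (845 higher, 900 lower, 4504 neither). Called features lie along the diagonal, ADY2 lies off it with -1.57 and -4.63 in the first and second loops, and SIC1 has opposite signs (0.67 and -0.31).

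The largest rise was that of DSE3 (YOR264W), a gene expressed in daughter cells. It was higher at 100 min by 3.57 in the first loop and 3.40 in the second, 3.66 on the direct array, for a mean of 3.48 ± 0.17 or 11.2-fold (limma adjusted p = 6.1e-13). AIM44, for a bud neck protein of the division ring, rose by 2.65 in the first loop and 2.60 in the second (mean 2.62 ± 0.15, limma adjusted p = 2.2e-12), and NIS1, for a septin-associated protein, by 2.44 in the first loop and 2.38 in the second (mean 2.41 ± 0.29, limma adjusted p = 6.2e-07). NIS1 nevertheless stayed below its 0 min level in the first loop, at -1.63 at 100 min and -4.08 at 40 min, while DSE3 stood at 3.32 at 100 min and -0.25 at 40 min and AIM44 at 1.97 at 100 min and -0.67 at 40 min.

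The second largest rise was that of MET6 (YER091C), methionine synthase, which rose by 3.67 in the first loop and 3.19 in the second (mean 3.43 ± 0.29, limma adjusted p = 2.3e-09). SAM1 and SAM2, the paralogous S-adenosylmethionine synthetases, rose by 3.01 ± 0.19 and 2.88 ± 0.18, with 3.03 and 3.00 in the first and second loops for SAM1 and 2.88 and 2.88 for SAM2. Loops differed by at most a few hundredths for both of these genes. MET17 (2.74 and 2.34), the sulfhydrylase that makes homocysteine, MHT1 (2.14 and 2.35), a methyltransferase that makes methionine from S-methylmethionine, and CYS3 (1.84 and 2.37), cystathionine gamma-lyase, were also among the 15 largest rises. The rest were SEO1 (mean 2.61), a putative permease, GND1 (2.61) of the pentose phosphate pathway, NCW2 (2.58) and PIR1 (2.35) of the cell wall, ADE17 (2.17) of purine synthesis and PHM6 (2.10), a phosphate-regulated gene.

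The largest fall was that of CIT2 (YCR005C), the peroxisomal citrate synthase of the glyoxylate cycle. It changed by -3.53 in the first loop and -4.95 in the second for a mean of -4.24 ± 0.22, which is 18.9-fold lower at 100 min (limma adjusted p = 6.1e-13). YGP1, a secreted glycoprotein induced when nutrients run low, changed by -4.23 ± 0.35 (-3.97 and -4.50), and MRH1, a plasma membrane protein, by -3.84 ± 0.38 (-4.10 and -3.58). The mating genes MFA1 (-3.60) and MFA2 (-2.97), both for the a-factor pheromone, fell as well. Secreted or cell wall proteins were PRY1 (-3.69), TIP1 (-3.60) and SPI1 (-3.24), and FDH1 (-3.63, formate dehydrogenase, read by 3 probes from -3.66 to -3.60), PHO3 (-3.26, an acid phosphatase) and BDH2 (-2.93, a putative butanediol dehydrogenase) were enzymes. ADY2, an acetate transporter, changed by -3.10 ± 0.42 with loops far apart at -1.57 and -4.63. EGO4 (-3.17), YGR067C (-3.12) and ECM13 (-3.01) completed the 15. All 30 of these genes kept their call with the galsicΔP extracts fitted alone and with arrays scaled to equal spread. They were chosen for size and for the same sign in both loops of these same extracts, so this is no independent check.

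**Figure D2:**
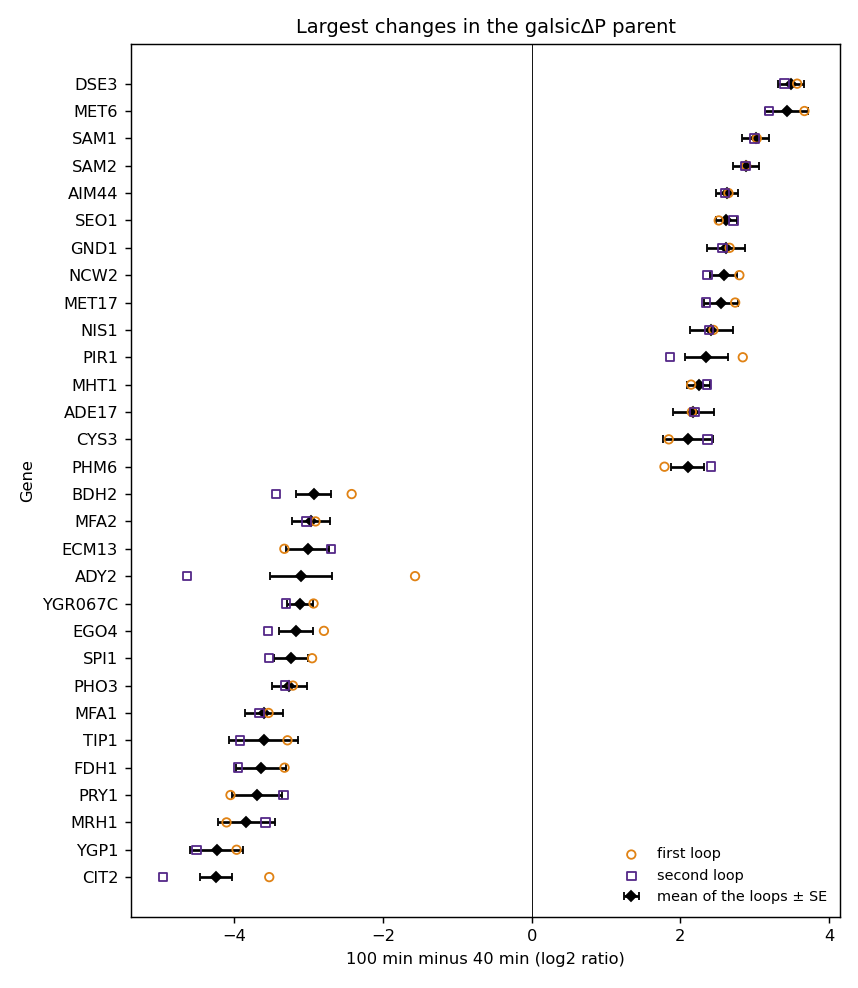
The 15 largest rises and the 15 largest falls, with the 100 min minus 40 min difference (log2 ratio) of the first loop as circles, of the second loop as squares, and the mean of both ± SE as diamonds. Genes were chosen with both loops on the same side of 0, and the loops are farthest apart for ADY2 (-1.57 and -4.63).

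Genes of the MCM helicase, the ring that licenses replication origins, were lower at 100 min, and of the 7 licensing genes measured 6 fell, none rose and CDC6 did not pass. Their median was -1.32, against 0.00 over all features, and 85.7% were called, against 27.9% of all features. MCM7 changed by -2.44 in the first loop and -2.38 in the second (mean -2.41 ± 0.20, limma adjusted p = 2.5e-09), with -2.37 on the direct array and, in the second loop, -2.97 along the path through the 100 min nrm1Δ extract and -1.79 along the path through the 40 min one. MCM3 changed by -2.40 in the first loop and -2.22 in the second (mean -2.31 ± 0.20), and MCM5 (mean -1.83 ± 0.18), MCM2 (-1.32 ± 0.24), MCM4 (-1.19 ± 0.15) and MCM6 (-1.15 ± 0.26) fell as well. In the first loop MCM7 stood at -2.42 at 100 min and 0.02 at 40 min relative to 0 min. CDC6, the loader of the ring, read -0.21 and 0.21 in the first and second loops (limma adjusted p = 0.998). On the first loop alone MCM6 missed the threshold (limma adjusted p = 0.053).

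Histone genes were higher at 100 min: of 9 measured, 7 rose (77.8%, against 27.9% of all features called), with a list median of 1.44. HHF2 and HHF1, for histone H4, changed by 1.84 in the first loop and 2.03 in the second (mean 1.94 ± 0.29, limma adjusted p = 1.4e-05) and by 1.69 in the first loop and 1.94 in the second (mean 1.82 ± 0.24, limma adjusted p = 3.5e-06). The H3 genes HHT2 (mean 1.44 ± 0.19) and HHT1 (1.41 ± 0.26), the H2A gene HTA2 (1.62 ± 0.33), the H2B gene HTB2 (1.55 ± 0.27) and the linker histone gene HHO1 (0.53 ± 0.19) rose too. HTA1 and HTB1, the other H2A and H2B pair, had means of 0.62 ± 0.26 and 0.64 ± 0.26 and did not pass (0.073 and 0.066 as limma adjusted p). HTB2 already stood above 0 min at the earlier time, with 4.79 at 100 min and 3.58 at 40 min in the first loop, and HHF2 with 3.34 at 100 min and 1.5 at 40 min, while HTA1 stood at -0.44 at 100 min and -0.97 at 40 min. HTA2 was lost on the first loop alone (limma adjusted p = 0.086), and HHO1 on either loop alone and with the arrays scaled. The paths of the second loop differed for HHF2, at 2.58 along the path through the 100 min nrm1Δ extract and 1.49 along the path through the 40 min one, and the 2 extracts of 0 min were themselves 1.22 apart for this gene.

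Genes of mitosis and cell separation moved in both directions. Of 21 measured genes of the CLB2 cluster 8 rose and 3 fell (52.4% called against 27.9% of all features), with a median of 0.51. SWI5, the transcription factor of late mitosis, changed by 1.70 in the first loop and 2.19 in the second (mean 1.95 ± 0.42, limma adjusted p = 0.0011). The mitotic cyclins CLB1 (1.84 and 2.04, limma adjusted p = 0.022) and CLB2 (0.98 and 1.44, limma adjusted p = 0.013), the bud site gene BUD4 (mean 1.44 ± 0.37) and the septum chitin synthase CHS2 (1.28 ± 0.34) rose as well, and AMN1, an antagonist of mitotic exit, by 1.77 ± 0.25. The 3 that fell were CDC20 (mean -0.85 ± 0.29), which activates the anaphase-promoting complex, DBF2 (-0.82 ± 0.14) of the mitotic exit network, and SPO12 (-0.63 ± 0.21), a regulator of mitotic exit. These were named after their values were seen. Of the 11, 2 passed on the first loop alone and 4 on the second alone. CLB1, CLB2, BUD4, CHS2, CDC20 and SPO12 were lost on either loop alone and with the arrays scaled, SWI5 was lost on the first loop alone (limma adjusted p = 0.093), and AMN1 and DBF2 passed under each of these settings.

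Among 15 M/G1 genes 7 rose and 1 fell (53.3% called against 27.9% of all features), with a median of 0.53. DSE3 led them, followed by PIR1 with 2.84 and 1.86 in the first and second loops (mean 2.35 ± 0.29). CYK3, a cytokinesis gene, rose by 1.43 ± 0.18, EGT2, for a cell wall glucanase of separation, by 1.07 ± 0.25, and SUN4, for another such wall protein, by 0.84 ± 0.24. PIR3, the neighbour of PIR1 on the reference assembly R64 and a gene of the same wall protein family, changed by -2.17 in the first loop and -2.49 in the second (mean -2.33 ± 0.27, limma adjusted p = 4.7e-07). These neighbours thus changed in opposite directions in both loops. Of the other daughter cell genes, DSE1 (mean 0.01 ± 0.21), DSE2 (-0.15 ± 0.25) and DSE4 (-0.37 ± 0.24) did not pass. Of the 8, 5 passed on the first loop alone and 4 on the second alone. EGT2 was lost on the second loop alone (limma adjusted p = 0.14) and SUN4 on either.

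**Figure D3:**
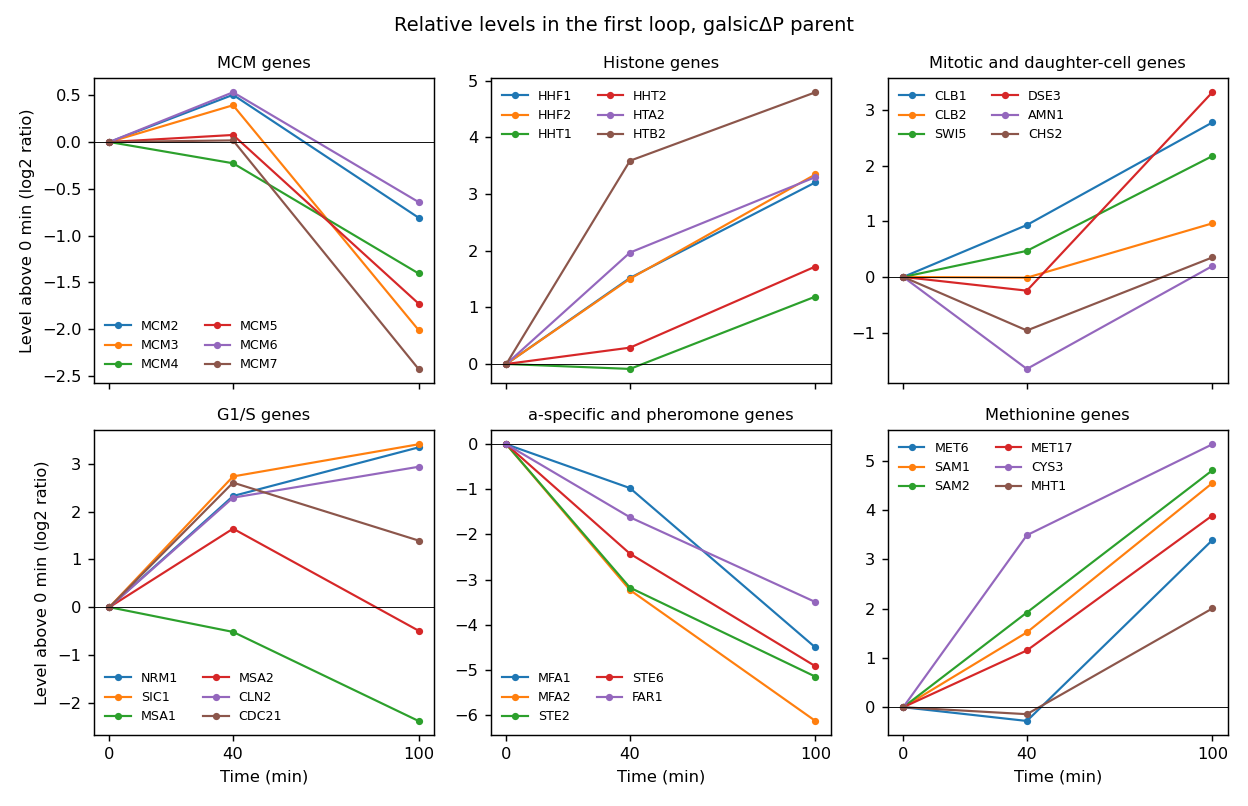
Log2 levels of named genes in the first loop at 0, 40 and 100 min (horizontal axis), relative to the mean of the 0 min extracts, with 1 extract at 40 and 1 at 100 min. MCM7 stands at -2.42 at 100 min and 0.02 at 40 min, HHF2 at 3.34 at 100 min and 1.5 at 40 min, DSE3 at 3.32 at 100 min and -0.25 at 40 min and MFA1 at -4.51 at 100 min and -0.97 at 40 min.

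The called SBF targets were higher and the called MBF targets lower at 100 min, with 20.7% of the SBF and 30.6% of the MBF list called, against 27.9% of all features. Of 29 measured SBF targets 6 rose and none fell (median 0.48), and of 36 MBF targets none rose and 11 fell (median -0.58). Most of the SBF targets that rose encode wall and bud proteins. EXG1, a wall glucanase, changed by 1.99 in the first loop and 2.17 in the second (mean 2.08 ± 0.31, limma adjusted p = 1.7e-05), SVS1, for a wall protein, by 1.47 ± 0.39, SRL1, for a mannoprotein, by 1.33 ± 0.36, PSA1, for GDP-mannose synthesis, by 1.02 ± 0.24, GIC2, for a Cdc42 effector, by 0.83 ± 0.24, and NDD1, the activator of the CLB2 cluster, by 0.48 ± 0.12. The G1 cyclin genes CLN1 (mean 0.55 ± 0.56) and CLN2 (0.81 ± 0.42) did not pass. Of the 6, 2 passed on the first loop alone and 6 on the second alone, and 1 passed with the arrays scaled.

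Among the MBF targets that fell were genes of DNA replication. RFA1, a subunit of the single-strand binding factor, changed by -1.33 in the first loop and -1.04 in the second (mean -1.19 ± 0.30, limma adjusted p = 0.0045). POL30, the sliding clamp, changed by -1.53 in the first loop and -0.82 in the second (mean -1.17 ± 0.42, limma adjusted p = 0.038), POL1 by -0.98 ± 0.35 and POL2 by -0.94 ± 0.28, both polymerase subunits, ASF1, a histone chaperone, by -0.88 ± 0.23 and SWI4, the DNA-binding part of SBF, by -1.11 ± 0.29. Of the 36 targets 34 lay below 0, and 20 had an unadjusted p under 0.05. Of the 11, 0 passed on the first loop alone and 0 on the second alone, and with the arrays scaled 1 passed. The list's median was -0.83 in the first loop and -0.35 in the second, and relative to 0 min, in the first loop, it stood at 0.18 at 100 min and 0.91 at 40 min. The S-phase cyclin gene CLB6 (-1.51 and -0.47, limma adjusted p = 0.071) and CDC21, for thymidylate synthase (-1.21 and -0.64, limma adjusted p = 0.058), did not pass, and CLB5 had a mean of -0.57 ± 0.21 (limma adjusted p = 0.042) that was lost on either loop alone.

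All 21 regulators of G1/S that were listed had a feature, and 5 rose and 3 fell (median 0.02). That is 38.1% called, against 27.9% of all features. NRM1 rose by 1.02 in the first loop and 1.42 in the second, a mean of 1.22 ± 0.26 or 2.33-fold (limma adjusted p = 0.001), and above 0 min it stood at 3.35 at 100 min and 2.33 at 40 min. On the direct array it read 0.93, and in the second loop 0.33 along the path through the 100 min nrm1Δ extract and 2.51 along the path through the 40 min one. The cause of the gap between the paths was not tested, and NRM1 is deleted in the strain that both pass through. On the first loop alone it missed the threshold (limma adjusted p = 0.11). YHP1, a repressor of M/G1 genes, rose by 1.53 in the first loop and 1.88 in the second (mean 1.71 ± 0.28, limma adjusted p = 4.0e-05), and CLB4 (0.79 ± 0.17), a mitotic cyclin, FKH1 (0.60 ± 0.20), a forkhead factor, and CDC28 (0.55 ± 0.17), the cyclin-dependent kinase, rose less.

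MSA1 and MSA2, activators that bind MBF and SBF, were the largest falls among the regulators. MSA2 changed by -2.14 in the first loop and -1.92 in the second (mean -2.03 ± 0.23, limma adjusted p = 2.9e-07) and MSA1 by -1.87 in the first loop and -1.89 in the second (mean -1.88 ± 0.18, limma adjusted p = 1.8e-08). The first loop put MSA2 at -0.49 at 100 min and 1.65 at 40 min relative to 0 min. CLN3, the cyclin that starts the G1/S programme, changed by -0.82 ± 0.20 (limma adjusted p = 0.0036). Of the 8, 3 passed on the first loop alone and 6 on the second alone; CLB4 and CLN3 were lost on the first loop alone, and FKH1 and CDC28 on either.

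The remaining 13 regulators did not pass. SIC1 read 0.67 in the first loop and -0.31 in the second, with opposite signs and a mean of 0.18 ± 0.32 (limma adjusted p = 0.73). RAD53, the checkpoint kinase, had a mean of -0.62 ± 0.30, STB1, a regulator of MBF and SBF, of -0.40 ± 0.23, and WHI5, the inhibitor of SBF, of 0.31 ± 0.15. CLB3 (0.32 ± 0.14), BCK2 (-0.32 ± 0.15), CDC34 (-0.30 ± 0.20), MCM1 (-0.29 ± 0.14), CKS1 (0.23 ± 0.16), CDC4 (-0.14 ± 0.15) and FKH2 (0.11 ± 0.15) lay closer to 0 than RAD53 and STB1. SWI6, the subunit shared by MBF and SBF, had 0.02 ± 0.16, and MBP1, the DNA-binding part of MBF, 0.01 ± 0.13. These last values were under their SE.

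Several genes of a-cells and of the pheromone receptor's signal fell. Of 30 pheromone response genes measured, 12 fell and PRM3, a karyogamy gene, rose (0.64 ± 0.21), with a median of -0.36. The list had 43.3% called, against 27.9% of all features. MFA1 changed by -3.54 in the first loop and -3.66 in the second (mean -3.60 ± 0.25, limma adjusted p = 1.2e-10), MFA2 by -2.90 in the first loop and -3.03 in the second (mean -2.97 ± 0.25), STE6, the a-factor exporter, by -2.50 in the first loop and -2.57 in the second (mean -2.53 ± 0.19), and STE2, the receptor for alpha-factor, by -1.97 in the first loop and -2.28 in the second (mean -2.13 ± 0.20). AFR1 (-2.08 ± 0.18), of the receptor's regulation, FAR1 (-1.88 ± 0.17), the G1 arrest factor, GPA1 (-1.78 ± 0.13), the G protein alpha subunit, AGA2 (-1.62 ± 0.23), the a-agglutinin subunit, ASG7 (-0.98 ± 0.20) and SST2 (-0.89 ± 0.15), which desensitises the receptor, fell as well. Of the 13, 10 passed on the first loop alone and 10 on the second alone. The 10 named falls passed on either loop alone, ASG7 was lost with the arrays scaled, and PRM3 on either loop alone.

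Pheromone-induced genes stood below 0 min already at 40 min. FIG1 stood at -6.72 at 100 min and -7.09 at 40 min relative to 0 min in the first loop and AGA1 at -6.26 at 100 min and -5.57 at 40 min, and the list's median was -4.59 at 100 min and -3.23 at 40 min. Between the times FIG1 (mean 0.07 ± 0.20) and AGA1 (-0.91 ± 0.37) did not pass. BAR1, the a-cell protease that degrades alpha-factor, read 0.00 and -0.10 in the first and second loops, and its level read 0.00 at 100 min and 0.00 at 40 min relative to 0 min. Of 4 genes of the other mating type only STE3, the a-factor receptor of alpha-cells, passed, higher by 0.89 ± 0.15 (0.80 and 0.98). That is 25% called, against 27.9% of all features. The list ranged from -0.11 to 0.89, and since ratios carry no absolute level, whether its defining markers were near 0 could not be read.

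**Figure D4:**
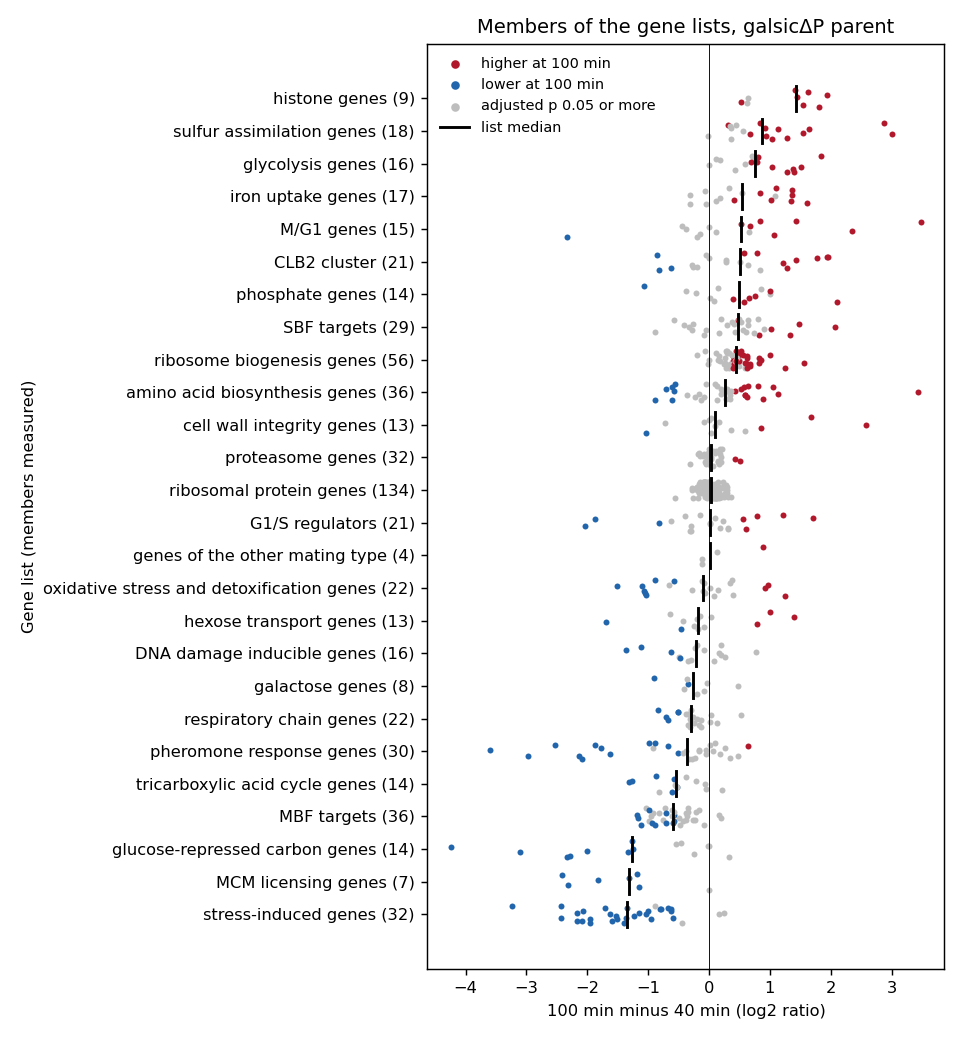
Each row is a gene list with the number of its members measured, each point a member's 100 min minus 40 min difference (log2 ratio, mean of both loops), coloured by limma's call, and each black bar the list's median. Histone genes have the highest median (1.44) and stress-induced genes the lowest (-1.35), and all 134 ribosomal protein genes lie between -0.57 and 0.36.

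Sulfur and methionine genes rose: of 18 measured sulfur assimilation genes 12 were higher at 100 min and none lower (median 0.88). The list had 66.7% called, against 27.9% of all features. Beyond SAM1, SAM2 and MET17, STR3, cystathionine beta-lyase, changed by 1.51 in the first loop and 1.79 in the second (mean 1.65 ± 0.20, limma adjusted p = 9.2e-07). MMP1, the S-methylmethionine permease and neighbour of MHT1 on R64, rose by 1.54 ± 0.25, MET32, a zinc-finger activator of the pathway, by 1.27 ± 0.27, and MET2, homoserine acetyltransferase, by 1.13 ± 0.18. Of the 12, 7 passed on the first loop alone and 9 on the second alone, and MET32 was lost on the first loop alone.

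The amino acid biosynthesis genes, a list that holds MET6, were split, with 12 of 36 higher, 6 lower and a median of 0.27. Of this list 50% were called, against 27.9% of all features. HIS1, of histidine synthesis, rose by 1.14 ± 0.25, LEU1, of leucine synthesis, by 1.05 ± 0.24, and ILV5, of branched-chain synthesis, by 0.89 ± 0.27. LYS9, of lysine synthesis, rose by 0.81 ± 0.20 and ARG1, of arginine synthesis, changed by -0.89 ± 0.29. ILV5 and ARG1 were lost on either loop alone and LYS9 on the second; HIS1 and LEU1 were lost with the galsicΔP extracts fitted alone.

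Some of the phosphate and iron genes were higher at 100 min. Of 14 phosphate genes 6 rose and PHO12, an acid phosphatase, fell (-1.07 ± 0.26), with a median of 0.49. The share called was 50%, against 27.9% of all features. PHM6 rose by 1.79 in the first loop and 2.41 in the second and VTC3, of the vacuolar polyphosphate polymerase, by 1.0 ± 0.15; SPL2 (0.76 ± 0.25), VTC4 (0.65 ± 0.22) and VTC1 (0.57 ± 0.19) rose less and were lost on either loop alone, and PHO12 on the second. Of 17 iron uptake genes 8 rose and none fell (47.1% called, median 0.54). FRE1, the iron reductase, changed by 2.07 in the first loop and 1.16 in the second (mean 1.61 ± 0.34, limma adjusted p = 8.6e-04), FIT2, a wall mannoprotein that retains siderophore iron, by 1.36 ± 0.30, FET3, the iron oxidase, by 1.36 ± 0.38, TIS11, which degrades messages of iron-using proteins, by 1.34 ± 0.20, ISU2, an iron-sulfur scaffold, by 1.1 ± 0.26 and HMX1, heme oxygenase, by 1.02 ± 0.19. FRE1, FIT2 and HMX1 were lost on the second loop alone, ISU2 on the first and FET3 on either, and TIS11 was lost with the arrays scaled.

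Most glycolysis genes rose, and most of the genes repressed by glucose fell. Of 16 glycolysis genes 9 rose and none fell (56.25% called against 27.9% of all features, median 0.76). The enolase genes ENO2 and ENO1 changed by 1.84 in the first loop and 1.85 in the second (mean 1.84 ± 0.40, limma adjusted p = 9.7e-04) and by 1.68 in the first loop and 1.35 in the second (mean 1.51 ± 0.36). PGK1 (1.4 ± 0.21), phosphoglycerate kinase, GPM1 (1.38 ± 0.20), phosphoglycerate mutase, ADH1 (1.28 ± 0.21), the fermentative alcohol dehydrogenase, and TDH2 (1.04 ± 0.30), a glyceraldehyde-phosphate dehydrogenase, rose beside them. ENO1 and TDH2 were lost on the second loop alone, and ENO2, ENO1 and TDH2 with the galsicΔP extracts fitted alone. Of the 9, 6 passed on the first loop alone, 5 on the second alone and 4 with the galsicΔP extracts fitted alone. In the second loop, the path through the 100 min nrm1Δ extract read lower than that through the 40 min one. ENO2 read 0.74 and 2.95 along them, ENO1 0.27 and 2.44, and PGK1 -0.07 and 2.53. ADH1 read 0.22 and 2.28 and TDH2 -0.18 and 1.71, while the GPM1 paths lay closer, at 1.14 and 1.4.

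Glucose-repressed carbon genes had a median of -1.26, and 8 of 14 fell and none rose (57.1% called against 27.9% of all features). After CIT2 and ADY2 came ACS1, acetyl-CoA synthetase, with -1.57 in the first loop and -3.08 in the second (mean -2.33 ± 0.34, limma adjusted p = 1.2e-05), and JEN1, the lactate transporter, with -1.84 in the first loop and -2.72 in the second (mean -2.28 ± 0.38). MLS1, malate synthase of the glyoxylate cycle, changed by -2.01 ± 0.14 and SUC2, invertase, by -1.33 ± 0.37. The second loop showed the larger fall for each of these 6 genes, and SUC2 was lost on the first alone. The list's median was -0.82 in the first loop and -1.53 in the second.

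Of 14 genes of the tricarboxylic acid cycle 6 fell and none rose (42.9% called against 27.9% of all features, median -0.54). IDH2 changed by -1.58 in the first loop and -1.07 in the second (mean -1.32 ± 0.15) and IDH1, its partner in isocitrate dehydrogenase, by -0.87 ± 0.14. CIT1, the mitochondrial citrate synthase, changed by -1.26 ± 0.13, SDH2, of succinate dehydrogenase, by -0.61 ± 0.14, MDH1, malate dehydrogenase, by -0.57 ± 0.16 and FUM1, fumarase, by -0.52 ± 0.19. MDH1 and FUM1 were lost on either loop alone and SDH2 on the first. Of 22 respiratory chain genes 5 fell (22.7% against 27.9% of all features), namely NDI1 (-0.83 ± 0.19), QCR10 (-0.71 ± 0.24), RIP1 (-0.68 ± 0.13), QCR6 (-0.51 ± 0.13) and COX4 (-0.50 ± 0.14), with a list median of -0.30, and none of the 5 passed on the first loop alone.

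Of the galactose genes the pathway's enzyme genes did not pass and GAL3 and GAL4 fell. GAL1 read 0.11 and -0.50 in the first and second loops, GAL10 0.34 and -0.40 and GAL7 0.08 and -0.22, with none past the threshold and the sign differing between loops. They stood far above 0 min: GAL7 by 8.81 at 100 min and 8.73 at 40 min and GAL10 by 7.86 at 100 min and 7.52 at 40 min in the first loop. GAL3, the galactose sensor, changed by -0.91 ± 0.16 (limma adjusted p = 1.5e-04) and GAL4, the activator, by -0.34 ± 0.10 (limma adjusted p = 0.0097), and both were lost on the first loop alone and with the galsicΔP extracts fitted alone. Of the list of 8, 25% were called, against 27.9% of all features, and its median was -0.27.

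Stress-induced genes fell: 28 of 32 were lower at 100 min, none was higher, and the median was -1.35. The share called was 87.5%, against 27.9% of all features. SPI1 changed by -2.95 in the first loop and -3.53 in the second (mean -3.24 ± 0.23), and DDR2 by -2.20 in the first loop and -2.67 in the second (mean -2.43 ± 0.26, limma adjusted p = 1.3e-07). Genes of trehalose and glycogen metabolism were among them, with TSL1, a trehalose synthase subunit, at -2.17 ± 0.34 and GPH1, glycogen phosphorylase, at -2.09 ± 0.31. DCS2 (-2.42 ± 0.25), an inhibitor of message decapping, and GAD1 (-2.17 ± 0.24), glutamate decarboxylase, fell too. The median was -1.07 in the first loop and -1.64 in the second. Of the 28, 14 passed on the first loop alone and 26 on the second alone, and 17 passed with the arrays scaled.

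Some of the genes for building ribosomes rose, and no ribosomal protein gene passed. Of 56 ribosome biogenesis genes 25 rose and none fell (44.6% called against 27.9% of all features, median 0.45). DBP2, an RNA helicase, changed by 1.29 in the first loop and 1.82 in the second (mean 1.56 ± 0.22, limma adjusted p = 8.0e-06), NSR1, a nucleolar protein, by 0.84 in the first loop and 1.67 in the second (mean 1.25 ± 0.22), and HAS1, an RNA helicase, by 1.0 ± 0.20, UTP5, of the small subunit processome, by 0.86 ± 0.21, DBP8, a helicase, by 0.81 ± 0.11 and RPF1 by 0.81 ± 0.13. Of the 25, 3 passed on the first loop alone and 21 on the second alone; NSR1, HAS1 and UTP5 were lost on the first. None of 134 ribosomal protein genes passed limma's test (27.9% of all features did), 2 had an unadjusted p under 0.05, and the 3 farthest from 0 were RPS14B (-0.57 ± 0.24), RPS12 (0.36 ± 0.30) and RPL4A (0.31 ± 0.21). Their median was 0.03, while they stood 4.15 above 0 min at 100 min and 4.05 at 40 min.

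The change from 40 to 100 min was set against the same change in galsicΔP nrm1Δ extracts, which share the loops with the parent. The difference between the courses, parent minus nrm1Δ, passed for 173 of 6249 features (2.77%). The change was higher in the parent for 62 (0.992%) and lower for 111 (1.78%). Below, higher or lower in the parent means this change and not the level in a strain. Of the 173, 155 were also called in the parent, 149 had the larger absolute change in the parent, and 78 moved in opposite directions in the strains. On the galsicΔP extracts fitted alone 12 passed, on the first loop alone 21 and on the second alone 77, so most of these differences depend on the spread taken from the other strains and on having both loops.

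Replication and histone genes were among the genes whose course differed. For 5 of the 7 licensing genes the course difference passed, all lower in the parent, and the list's median change was -0.23 in nrm1Δ. MCM7 changed by -2.44 and -2.38 in the parent and by -0.43 and -0.92 in nrm1Δ (first and second loops), a difference of -1.73 ± 0.29 (limma adjusted p = 8.1e-04). MCM5 changed by -1.80 and -1.85 in the parent and by -0.19 and -0.15 in nrm1Δ (-1.65 ± 0.26, limma adjusted p = 5.1e-04). As nrm1Δ minus the parent, MCM7 read -0.08 at 100 min (limma adjusted p = 0.89) and -1.81 at 40 min (limma adjusted p = 6.2e-07). The strains thus differed past the threshold at 40 min only.

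Histone genes had a median of -0.16 in nrm1Δ, and the course difference passed for 5 of 9, all higher in the parent. HHF2 changed by 1.84 and 2.03 in the parent and by -0.95 and -0.10 in nrm1Δ, a difference of 2.46 ± 0.41 (limma adjusted p = 7.2e-04). As nrm1Δ minus the parent it read -0.74 at 100 min (limma adjusted p = 0.11) and 1.72 at 40 min (limma adjusted p = 9.7e-05). With the galsicΔP extracts fitted alone 0 histone and 2 licensing genes had a course difference past the threshold, on the first loop alone 1 and 2, and on the second alone 2 and 1.

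Mating genes also differed: the course difference passed for 7 of 30 pheromone response genes, all lower in the parent. On the first loop alone 2 of the list passed, on the second alone 3, with the arrays scaled 2 and with the galsicΔP extracts fitted alone 3. STE6 changed by -2.50 and -2.57 in the parent and by -0.42 and -0.63 in nrm1Δ (-2.01 ± 0.27, limma adjusted p = 8.7e-05). MFA2 changed by -2.90 and -3.03 in the parent and by -0.25 and -1.11 in nrm1Δ (-2.29 ± 0.36, limma adjusted p = 4.5e-04). As nrm1Δ minus the parent, STE6 read -0.47 at 100 min (limma adjusted p = 0.13) and -2.48 at 40 min (limma adjusted p = 1.0e-09). MFA2 read -1.12 at 100 min (limma adjusted p = 0.0049) and -3.40 at 40 min (limma adjusted p = 9.2e-10). Both thus stood lower in nrm1Δ already at 40 min. Of the 14 glucose-repressed carbon genes 4 passed, all lower in the parent, and none of these 4 did on the first loop alone. DSE3 rose in both strains, by 3.57 and 3.40 in the parent and 1.0 and 1.72 in nrm1Δ, and the difference of 2.12 ± 0.24 passed (limma adjusted p = 1.3e-05). FDH1 moved in opposite directions, by -3.32 and -3.95 in the parent and 1.30 and 1.12 in nrm1Δ (-4.84 ± 0.47, limma adjusted p = 1.5e-06).

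For the sulfur, glycolysis and tricarboxylic acid cycle lists no course difference passed limma's test, while 6, 1 and 1 genes of these lists had an unadjusted p under 0.05. SAM1 changed by 3.03 and 3.00 in the parent and 2.63 and 2.70 in nrm1Δ, a difference of 0.35 ± 0.26 (limma adjusted p = 0.67). ENO2 changed by 1.84 and 1.85 in the parent and 2.53 and 1.91 in nrm1Δ (-0.38 ± 0.56, limma adjusted p = 0.89), and CIT1 by -1.19 and -1.34 in the parent and -1.48 and -1.14 in nrm1Δ (0.04 ± 0.18, limma adjusted p = 0.98). Among 36 MBF targets no course difference passed, and the median change was -0.58 in the parent and -0.59 in nrm1Δ. None passed among 29 SBF targets either, with medians of 0.48 in the parent and -0.06 in nrm1Δ. By limma's unadjusted p, 1 MBF and 7 SBF targets had a course difference under 0.05. A p above the threshold does not show that the strains changed alike. NRM1 itself differed by 1.29 ± 0.37 (limma adjusted p = 0.064), with the nrm1Δ side reading a deleted gene.

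**Figure D5:**
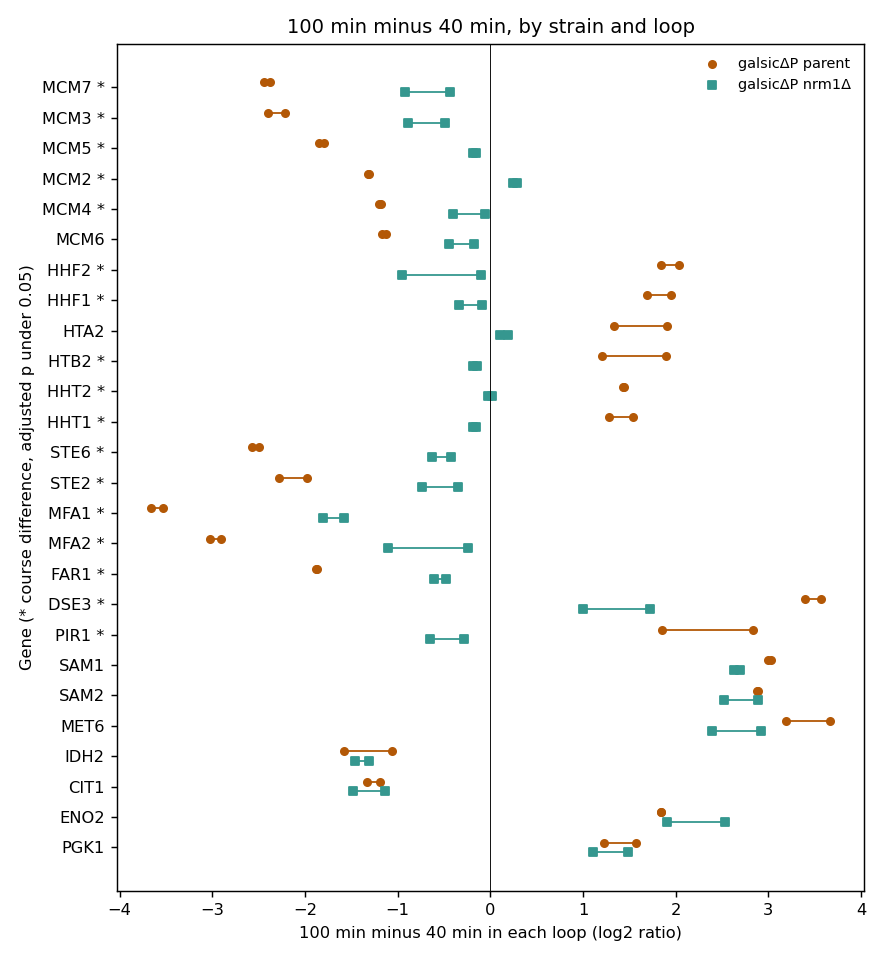
For named genes, the 100 min minus 40 min difference (log2 ratio) in each loop, with parent extracts as circles above and nrm1Δ extracts as squares below, a line joining the loops, and a star where the course difference passed limma's test. MCM7 lies at -2.44 and -2.38 in the parent and -0.43 and -0.92 in nrm1Δ, while CIT1 lies at -1.19 and -1.34 in the parent and -1.48 and -1.14 in nrm1Δ.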

How the data were processed

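Total RNA extracts were compared pairwise on two-colour arrays, and the values analysed are the log2 ratios of Cy5 over Cy3 RNA as deposited by the authors, 1 per probe and array, with limma named per the submitters' processing notes. The sources used here give neither background correction nor normalisation nor the base of the logarithm; base 2 was taken, as limma writes it. The table holds 6266 probes, of which 5609 carry 1 gene symbol, 0 several and 657 none, and 5608 named probes matched R64. Probes of a gene were averaged (16 genes with several), giving 6249 features. Probe sequences were not used, so cross-hybridisation between near-identical pairs such as HHF1 and HHF2, HHT1 and HHT2, SAM1 and SAM2, ENO1 and ENO2, MFA1 and MFA2 or FDH1 and its copies was not tested.

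Ratios were turned into relative extract levels by least squares within each strain set, with a dye term (R 4.3.3). Limma 3.58.1 was then fitted to 54 extracts in 27 groups with 14 hybridisation blocks (lmFit, eBayes), leaving 20 residual degrees of freedom, of which 4 come from the galsicΔP set; p-values were adjusted by Benjamini-Hochberg over 6249 features with a threshold of 0.05. The loop is a block by construction and equals the replicate number of the later parent extracts, so the numbers pair these samples through the array design. The 10 arrays lie on 3 slides. The median SE was 0.16, and 0.23 for the difference between courses.

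Named genes are the 15 largest rises and falls with a symbol, past the threshold and with the same sign in both loops, up to 6 called members of each list (3 where none passed), all G1/S regulators, and the 8 largest course differences in each direction; CDC6, CLB5, CLB6, CDC21, CLN1, CLN2, HTA1, HTB1, HHO1, GPA1, AGA2, ASG7, SST2, the DSE, GAL, FIG and AGA genes and the strain markers were named besides these. Members, the 26 lists (5 of 654 entries have no feature) and the tests were chosen with earlier results of these data known, and a list's count is therefore no independent evidence. Comparisons at 40 min against 0 min share extracts with those at 100 min and are given as values. Alternatives were no dye term, no replicate block, 1-step fits, other scalings and filters, robust eBayes, the galsicΔP extracts alone and each replicate left out. Figures were drawn with Python 3.11.15 and matplotlib 3.10.9.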

Additional observations from a re-analysis of the deposited data

Results flagged for a closer look

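The genes below were marked because their change from 40 to 100 min differed between the galsicΔP parent and galsicΔP nrm1Δ by limma's contrast of the courses, the 8 largest in each direction. Values are parent minus nrm1Δ, log2, with n = 2 extracts at each time and strain; they were chosen for their size among 173 differences. The cause of none of them was tested.

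The change was higher in the parent for the wall protein gene PIR1 (2.82) and the H4 genes HHF2 (2.46) and HHF1 (2.03). So it was for the daughter cell gene DSE3 (2.12), the iron gene FIT2 (1.94) and the permease gene SEO1 (1.83). BTN2, which sorts misfolded proteins (1.78), and the H2B gene HTB2 (1.72) completed the group. DSE3 and SEO1 passed on either loop alone. By level, nrm1Δ minus the parent at 40 min ranged from -0.78 (PIR1) to 1.72 (HHF2) over these genes. At 100 min it ranged from -3.60 (PIR1) to -0.41 (HTB2). BTN2 changed by 2.42 and 1.73 in the parent and by 0.14 and 0.45 in nrm1Δ. HHF1 changed by 1.69 and 1.94 in the parent and by -0.09 and -0.34 in nrm1Δ. FIT2 passed on neither loop alone, PIR1, HHF2 and BTN2 on the first alone, and HHF1 and HTB2 on the second alone.

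The change was lower in the parent for the formate dehydrogenase gene FDH1 (-4.84), the stationary phase gene SPG4 (-2.68), TIP1 (-2.66) and MRH1 (-2.63). The others were the acetate transporter gene ADY2 (-2.38), the a-factor gene MFA2 (-2.29), YGP1 (-2.28) and the acid phosphatase gene PHO3 (-2.20). FDH1, SPG4 and MFA2 passed on either loop alone. TIP1, MRH1 and YGP1 passed on neither, and ADY2 and PHO3 on the second alone. ADY2 and SPG4 also had parent loops far apart, at -1.57 and -4.63 and -1.68 and -3.94. By level, nrm1Δ minus the parent at 40 min ranged from -3.42 (TIP1) to -1.86 (ADY2), so all of these genes stood higher in the parent then. At 100 min it ranged from -1.12 (MFA2) to 2.52 (FDH1). With the galsicΔP extracts fitted alone, 3 of these 16 differences passed.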

How the results depend on the processing

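Of 151 named genes called between 100 and 40 min none changed direction under the 12 alternatives. Under the 10 that kept both replicates 104 to 151 stayed called, and the first loop alone kept the fewest. Most of these settings could not turn a sign. No dye term, no replicate block, robust eBayes, features with a symbol only and the galsicΔP extracts alone left the differences themselves unchanged. Leaving out 1 replicate gave the other loop's value, and 1744 of the 1745 calls had the same sign in both loops. The count of 1745 kept within 1.5 times under the fit without a replicate block (1829; 202 course differences), the galsicΔP extracts alone (1259), 1-step fits (2163, and 2520 with a dye term for each slide) and the other planned settings, except as follows. Arrays scaled to equal spread gave 930 (406 higher, 524 lower), and leaving out 1 replicate gave 566 to 1154 (246 to 529 higher, 320 to 625 lower). The 173 course differences (62 higher, 111 lower) became 12 (4 and 8) with the galsicΔP extracts alone, 114 (68 lower) in the 1-step fit, 83 (26 and 57) with scaled arrays, and 21 to 77 (11 to 20 higher, 10 to 57 lower) with 1 replicate left out; the smaller sets of samples have fewer degrees of freedom, and the other causes were not tested. Signs of genes that had not passed turned for CDC4 (0.0092) and SWI6 (-0.081) in both 1-step fits, and with 1 replicate left out for SIC1 (-0.31 to 0.67), SWI6 (-0.026 to 0.064), MBP1 (-0.051 to 0.073), CDC6 (-0.21 to 0.21), DSE1 (-0.13 to 0.14), FIG1 (-0.24 to 0.37), GAL1 (-0.50 to 0.11), GAL10 (-0.40 to 0.34), GAL7 (-0.22 to 0.08), BAR1 (-0.10 to 0.00) and URA3 (-0.08 to 0.11). With 2 extracts at each time, no background signal and 0 min extracts only in the first loop, small changes could not be resolved. This reaches beyond the median SE of 0.16, as CLB3 (0.32 ± 0.14) and MCM1 (-0.29 ± 0.14) did not pass.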

Other observations

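Several lists held smaller changes. The share called was 30.8% for cell wall integrity, 38.5% for hexose transport and 6.25% for proteasome genes, against 27.9% of all features. Of 13 cell wall integrity genes 3 rose and 1 fell (median 0.10): CWP1, for a wall mannoprotein, changed by 1.79 in the first loop and 1.58 in the second (mean 1.68 ± 0.22), NCW2 by 2.79 and 2.37 and CRG1 by 0.85 ± 0.18, while SED1, a wall protein of stressed cells, read -0.40 and -1.66 (mean -1.03 ± 0.24) and was lost on the first loop alone. Of 13 hexose transport genes 3 rose and 2 fell (median -0.18). RGT2, a glucose sensor, changed by -1.5 in the first loop and -1.89 in the second (mean -1.69 ± 0.17, limma adjusted p = 5.1e-08), and HXT3, a low-affinity transporter, rose by 1.0 ± 0.19; HXT10 (1.4 ± 0.41) and SNF3 (-0.46 ± 0.13) were lost on either loop alone and HXT2 (0.79 ± 0.22) on the second.

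Of 22 genes of oxidative stress and detoxification 3 rose and 7 fell (45.5% called against 27.9% of all features, median -0.10). CTA1, peroxisomal catalase, changed by -0.85 in the first loop and -2.17 in the second (mean -1.51 ± 0.41) and was lost on the first loop alone, SRX1 (-1.1 ± 0.40) was lost on either, PRX1 (-1.06 ± 0.22), SSU1 (-1.05 ± 0.20) and GRX2 (-1.03 ± 0.27) were lost on the first, and OYE2, an NADPH oxidoreductase, rose by 1.25 ± 0.22. Of 16 DNA damage inducible genes 4 fell and none rose (median -0.22), which is 25% called against 27.9% of all features. DDR48 changed by -1.15 in the first loop and -1.57 in the second (mean -1.36 ± 0.19) and PHR1, the photolyase, by -1.11 ± 0.19, whereas UBI4 (-0.62 ± 0.18) and MAG1 (-0.48 ± 0.16) were lost on the first loop alone. Proteasome genes had 2 of 32 higher, RPN9 (0.51 ± 0.18) and PUP1 (0.43 ± 0.15), and neither passed on 1 loop alone (median 0.04).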
